A study of Homo sapiens with 36 samples.

Results

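Whether the transcriptional response to acidic bile salts depended on APE1 was measured in FLO1, a human esophageal adenocarcinoma cell line, with 18 of the 36 libraries of the series, namely all those made from this line. APE1, encoded by APEX1, was depleted with 1 of 2 short hairpin RNAs in stably transduced cells (shAPE1#3 and shAPE1#1), and the controls carried a non-targeting hairpin (shControl). All cells were grown in DMEM with 10% FBS. The 6 groups of 3 libraries were shAPE1#3 with ABS, shAPE1#3 unexposed, shAPE1#1 with ABS, shAPE1#1 unexposed, shControl with ABS and shControl unexposed. ABS was a cocktail of bile salts, 200 µM at pH 4, given for 20 min and followed by 6 h in complete medium. The series describes the replicates of a group as biologically independent; whether each transduced line was a clone or a pool is not given in the sources used here. The quantity of interest was the interaction, the ABS response in shAPE1 cells minus the ABS response in shControl cells, on the log2 scale, taken for each hairpin. Both interactions use the same 6 shControl libraries, so agreement between them is not independent evidence, and their values are given side by side. The difference of the ABS response in shAPE1#3 cells minus that in shAPE1#1 cells uses no shControl library and was tested as a comparison of its own.

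APE1 is the main endonuclease of base excision repair, where it cuts the DNA backbone at sites that have lost a base, and it also acts as a redox factor (Ref-1) that keeps transcription factors such as AP-1, NF-kB, p53 and HIF1 in a reduced, DNA-binding state. Refluxed acid and bile salts are held to drive Barrett's metaplasia and adenocarcinoma of the lower esophagus. They damage membranes, proteins and DNA, and cells answer with heat shock genes, immediate early genes of the FOS, EGR and NR4A families, and the unfolded protein response of the endoplasmic reticulum. Unfolded protein frees the heat shock factor HSF1, which binds inverted repeats of GAA in the promoters of chaperone genes.

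APEX1 itself (ENSG00000100823, chr14:20455191-20457772, plus strand, GRCh38) had 32.2, 37.5 and 34.7 CPM (counts scaled to a library total of 1000000, not corrected for length) in shAPE1#3 ABS libraries and 38.2, 37.1 and 36.1 CPM in shAPE1#3 libraries. It had 27.9, 27.3 and 25.1 CPM in shAPE1#1 ABS libraries and 25.3, 25.2 and 24.95 CPM in shAPE1#1 libraries, against 189, 175 and 202 CPM in shControl ABS libraries and 197, 198 and 195 CPM in shControl libraries. Every shAPE1 library lay below every shControl library, and the knockdown was as deep after ABS as before it. The log2 change against shControl was -2.45 after ABS and -2.42 unexposed with shAPE1#3, and -2.79 after ABS and -2.97 unexposed with shAPE1#1. The interaction of APEX1 with ABS was -0.02 ± 0.11 (SE) with shAPE1#3 and 0.18 ± 0.12 with shAPE1#1, neither called by edgeR's quasi-likelihood test (unadjusted p = 0.84 and 0.13). These libraries measure RNA per total RNA, so fewer cells of a type and less RNA per cell cannot be told apart.

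The 18 libraries held 21751357 to 40654584 counts and 22288 to 24862 detected genes, with 2.87 to 3.84% of counts from mitochondrial genes. One library stood apart. Replicate 2 of shControl ABS had the lowest depth, a count-weighted GC content of 52.7% against 50.6 to 51.8% in the other 17 libraries, and the smallest weight, 0.119, when libraries were weighted by quality with limma. It enters both interactions but not the difference between hairpins, and the results named with it below are given with and without it.

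Across all 16868 genes that passed the expression filter, no gene was called in either interaction at an adjusted p under 0.05 (edgeR quasi-likelihood test, Benjamini-Hochberg adjustment, 0.0% of genes for each). With shAPE1#3, 341 genes had an unadjusted p under 0.05 and DESeq2 called 1 gene. With shAPE1#1, 1615 genes had an unadjusted p under 0.05 and DESeq2 called 30. A uniform distribution of p would put 843 genes under 0.05. The lowest adjusted p was 0.359 for shAPE1#3 and 0.067 for shAPE1#1, shared by the genes named below. The mean of both interactions also gave no call (0.0%), with 735 genes at an unadjusted p under 0.05, 3 calls by DESeq2 and a lowest adjusted p of 0.0926, that of HSPA1B.

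The interactions were small for most genes. Their 5th and 95th percentiles over genes were -0.575 and 0.54 log2 units for shAPE1#3 and -0.716 and 0.594 for shAPE1#1. Among 12072 genes whose mean log2 CPM was 1 or more, the median half-width of the 95% interval was 0.358 for both. An interaction much under this size was thus not resolvable for a typical gene. The interval is not adjusted for the number of genes, and larger interactions also went uncalled, as that of HSPA1A with shAPE1#1 (-0.84). Among the 12072 genes, an interaction beyond 1 log2 unit was reached by 4 with shAPE1#3 and by 16 with shAPE1#1. The difference between hairpins called 4 genes (0.0237% of genes), all lower with shAPE1#3, and 899 genes had an unadjusted p under 0.05.

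By contrast, the mean ABS response over the 3 backgrounds called 1299 higher genes (7.70%) and 977 lower genes (5.79%) by the same test. With counts corrected for GC content the split was 1848 higher and 2725 lower. By correlation over genes, the ABS responses of shAPE1#3 and shControl cells were the most similar pair. The shControl response includes ABS replicate 2, and the correlations were not computed without that library or with GC correction. Over the 12072 genes, Pearson's r across genes was 0.782 between the responses of shAPE1#3 and shControl, 0.482 between shAPE1#1 and shControl, and 0.608 between shAPE1#3 and shAPE1#1; these pairs share no library, and genes are not independent replicates. Over the 39 genes that were called and changed at least 2-fold on the mean, r was 0.951, 0.815 and 0.837 in the same order.

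Of these 39 genes, 37 rose, led by NR4A3, HSPA6, NR4A1, FOSB and EGR4, and 2 mitochondrial tRNA genes, MT-TF and MT-TV, fell. Their median response was 1.28 log2 units in shAPE1#3, 1.65 in shAPE1#1 and 1.42 in shControl cells. The interaction of the 37 genes that rose had a median of -0.20 with shAPE1#3, where 30 lay below 0 and 7 above, and of 0.127 with shAPE1#1, where 18 lay below 0 and 19 above. The direction was thus mixed with shAPE1#1, with 10 of the 37 genes higher and 9 lower at an unadjusted p under 0.05, against 4.85% and 4.72% of all genes. With shAPE1#3, 1 was higher and 6 were lower, against 0.913% and 1.11% of all genes. Over all 1299 genes that rose, the median interaction was -0.054 with shAPE1#3 (855 genes below 0 and 444 above). It was -0.03 with shAPE1#1 (709 below and 590 above), while over all tested genes it was 0.001 and -0.012. Both sets were chosen by a mean that includes the shControl response, which each interaction subtracts. That choice is neutral only if the groups vary alike, and the quality weights of the shControl ABS libraries were 0.449, 0.119 and 4.199. How far the choice moved these medians and counts was not tested.

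**Figure D1:**
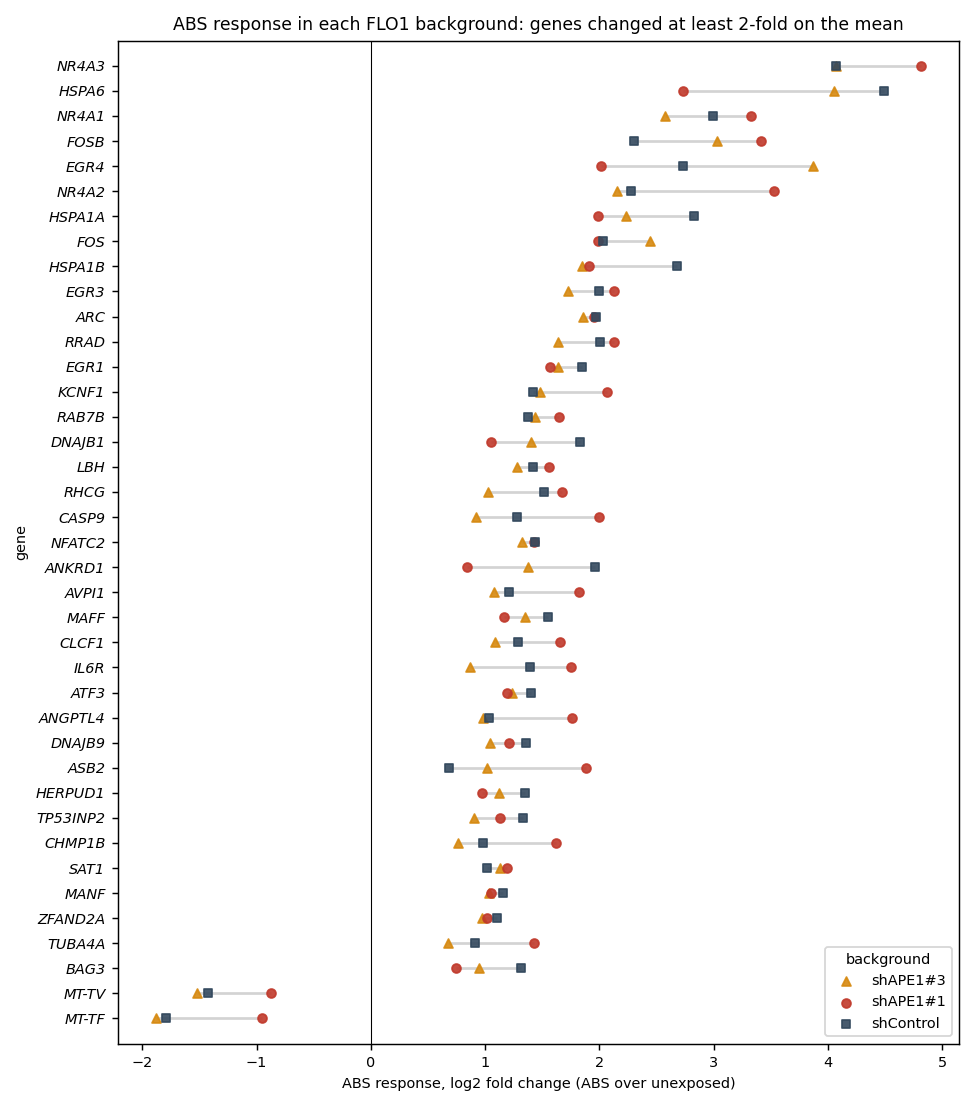
The log2 fold change of ABS over unexposed libraries is plotted for the 39 genes called and changed at least 2-fold on the mean of the 3 backgrounds, with 1 symbol for each of shAPE1#3, shAPE1#1 and shControl cells and a grey line joining them. HSPA1A, HSPA1B, DNAJB1 and BAG3 lie further right in shControl than in either shAPE1 background, as do others such as ANKRD1 and MAFF. NR4A2, CASP9, CHMP1B and TUBA4A lie furthest right in shAPE1#1.

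Among these 37 genes, the most negative interaction was that of HSPA1B with shAPE1#3 (-0.83) and that of HSPA6 with shAPE1#1 (-1.75). HSPA1A, HSPA1B, DNAJB1 and BAG3 had interactions below 0 with both hairpins, each set against the same shControl libraries. This direction was not particular to heat shock genes. Others of the 37 shared it, such as ANKRD1 (-0.58 with shAPE1#3 and -1.12 with shAPE1#1), MAFF (-0.20 and -0.38), HERPUD1 and EGR1. None of these genes was called with either hairpin. HSPA1A and HSPA1B encode the stress-inducible HSP70, DNAJB1 the HSP40 that hands it substrates, BAG3 a nucleotide exchange factor for it, and HSPA6 a further HSP70 that is almost silent without stress. The sequences below are the RefSeq promoters of these HSP70 genes, 250 bases before to 50 after the start of transcription (GRCh38.p14). They are shown because these genes, none of them called, are described further below. Capitals mark the heat shock elements searched for, which were GAANNTTC (head to head) or else TTCNNGAA (tail to tail).

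HSPA1A, chr6:31815293-31815592, plus strand: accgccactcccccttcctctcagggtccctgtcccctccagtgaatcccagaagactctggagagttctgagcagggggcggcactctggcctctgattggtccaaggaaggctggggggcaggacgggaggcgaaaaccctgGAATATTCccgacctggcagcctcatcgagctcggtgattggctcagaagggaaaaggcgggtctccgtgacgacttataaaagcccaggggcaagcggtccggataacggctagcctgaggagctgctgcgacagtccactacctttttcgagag
HSPA1B, chr6:31827488-31827787, plus strand: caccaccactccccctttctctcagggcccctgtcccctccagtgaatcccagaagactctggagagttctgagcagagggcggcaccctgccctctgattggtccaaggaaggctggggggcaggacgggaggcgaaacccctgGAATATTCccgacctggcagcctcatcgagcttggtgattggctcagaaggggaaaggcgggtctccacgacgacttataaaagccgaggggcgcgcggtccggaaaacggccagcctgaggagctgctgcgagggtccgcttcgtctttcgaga
HSPA6, chr1:161524290-161524589, plus strand: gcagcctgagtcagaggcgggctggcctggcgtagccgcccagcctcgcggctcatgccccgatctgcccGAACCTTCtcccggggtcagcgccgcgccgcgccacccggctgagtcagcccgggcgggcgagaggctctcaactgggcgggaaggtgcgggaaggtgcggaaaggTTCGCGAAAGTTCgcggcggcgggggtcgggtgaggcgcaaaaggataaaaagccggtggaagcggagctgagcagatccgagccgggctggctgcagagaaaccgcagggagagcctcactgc

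HSPA1A and HSPA1B each held 1 GAANNTTC, 106 and 105 bases before the start, with nearly the same bases around it. HSPA6 held 3 matches that begin 180, 74 and 69 bases before the start, the last of them overlapping. Of 35116 promoter windows, 6.77% held GAANNTTC and 7.74% held TTCNNGAA; both read the same on either strand. BAG3 held neither, and of 3 annotated windows of DNAJB1 the second held 2 matches of GAANNTTC and the third 1. A match describes these letters and is not evidence of binding.

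HSPA1A (ENSG00000204389, chr6:31815464-31817946) had 517, 588 and 591 CPM in shAPE1#3 ABS libraries against 126, 116 and 109 CPM in shAPE1#3 libraries. It had 804, 575 and 625 CPM in shAPE1#1 ABS libraries against 165, 169 and 165 CPM in shAPE1#1 libraries, and 796, 886 and 833 CPM in shControl ABS libraries against 119.9, 109 and 114 CPM in shControl libraries. After ABS all shAPE1#3 libraries lay below all shControl libraries, 1 of 3 shAPE1#1 libraries reached the shControl range, and before exposure the level differed from shControl by 0.02 log2 units in shAPE1#3 and by 0.53 in shAPE1#1 cells (adjusted p = 0.0040 for shAPE1#1, edgeR). The response was 2.23 log2 units in shAPE1#3, 1.99 in shAPE1#1 and 2.83 in shControl cells. The interaction was -0.60 ± 0.16 with shAPE1#3 (95% interval -0.92 to -0.27, unadjusted p = 0.00095) and -0.84 ± 0.16 with shAPE1#1 (-1.17 to -0.52, adjusted p = 0.067), so neither was called by edgeR.

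HSPA1B (ENSG00000204388, chr6:31827735-31830255) is a near-identical copy of HSPA1A, and reads may be split between them in a way that the sources used here do not state. It had 214, 234 and 234 CPM in shAPE1#3 ABS libraries against 63.7, 63.1 and 57.9 CPM in shAPE1#3 libraries. It had 295, 222 and 230 CPM in shAPE1#1 ABS libraries against 67.9, 62.2 and 66.1 CPM in shAPE1#1 libraries, and 333, 361 and 369 CPM in shControl ABS libraries against 51.7, 49.3 and 59.8 CPM in shControl libraries. All 6 shAPE1 libraries after ABS lay below the 3 shControl libraries after ABS. Its interaction was -0.83 ± 0.15 with shAPE1#3 (-1.15 to -0.51, adjusted p = 0.359) and -0.77 ± 0.15 with shAPE1#1 (-1.09 to -0.45, adjusted p = 0.123), the lowest adjusted p of any gene with shAPE1#3 (edgeR, Benjamini-Hochberg). Over 26 alternative analyses it was called in 6 with shAPE1#3 and in 8 with shAPE1#1.

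Summing HSPA1A and HSPA1B removes the question of how reads were split. The sum averaged 793 ± 53.02 CPM in shAPE1#3 ABS and 179 ± 11.5 CPM in shAPE1#3 libraries (SD, n = 3 each), a 4.44-fold rise. It averaged 917 ± 160 CPM in shAPE1#1 ABS and 232 ± 1.04 CPM in shAPE1#1 libraries, a 3.96-fold rise, and 1193 ± 59.7 CPM in shControl ABS and 168 ± 8.04 CPM in shControl libraries, a 7.11-fold rise. HSP70 RNA thus rose in all 3 backgrounds, with a smaller fold in both shAPE1 backgrounds than in shControl cells.

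DNAJB1 (ENSG00000132002, chr19:14514770-14529770, minus strand) had 288, 330 and 312 CPM in shAPE1#3 ABS libraries against 115, 114 and 114 CPM in shAPE1#3 libraries. It had 326, 263 and 277 CPM in shAPE1#1 ABS libraries against 138, 134 and 138 CPM in shAPE1#1 libraries, and 460.2, 408 and 480.3 CPM in shControl ABS libraries against 116, 118 and 132 CPM in shControl libraries. The groups after ABS did not overlap between either hairpin and shControl. Its interaction was -0.43 ± 0.13 with shAPE1#3 (unadjusted p = 0.0028) and -0.78 ± 0.13 with shAPE1#1 (adjusted p = 0.067, edgeR). Without shControl ABS replicate 2 the adjusted p with shAPE1#1 was 0.00149 for DNAJB1, 0.0143 for HSPA1A and 0.0286 for HSPA1B, and 0.0731 for HSPA1B with shAPE1#3. The interactions without that library were -0.47, -0.52 and -0.79 with shAPE1#3 and -0.80, -0.76 and -0.71 with shAPE1#1 for DNAJB1, HSPA1A and HSPA1B, so their size did not rest on it.

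BAG3 (ENSG00000151929, chr10:119651370-119677819) had 351, 306 and 321 CPM in shAPE1#3 ABS libraries against 168, 172 and 155 CPM in shAPE1#3 libraries. It had 349, 278 and 295 CPM in shAPE1#1 ABS libraries against 179.7, 181 and 182 CPM in shAPE1#1 libraries, and 371, 398 and 354 CPM in shControl ABS libraries against 139.7, 142 and 155 CPM in shControl libraries. The ABS libraries of each hairpin lay just under those of shControl and the unexposed ones above them. Its interaction was -0.37 with shAPE1#3 (unadjusted p = 0.011) and -0.57 with shAPE1#1 (unadjusted p = 0.00033), neither called by edgeR.

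HSPA6 (ENSG00000173110, chr1:161524540-161526910) differed between the hairpins. It had 20.2, 25.3 and 24.9 CPM in shAPE1#3 ABS libraries, 11.4, 4.95 and 6.87 CPM in shAPE1#1 ABS libraries, and 25.1, 21.7 and 43.8 CPM in shControl ABS libraries, with 0.882 to 1.68 CPM in all 9 unexposed libraries. All 3 shAPE1#1 libraries after ABS were below the other 6, whereas shAPE1#3 overlapped shControl. The interaction was -0.43 ± 0.45 with shAPE1#3 and -1.75 ± 0.48 with shAPE1#1 (unadjusted p = 0.0016), and the difference between hairpins was 1.32 (unadjusted p = 0.011), none called by edgeR.

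Of 22 listed HSP70 genes and cochaperones, 9 rose and 1 fell on the mean ABS response, against 7.70% and 5.79% of all genes. With shAPE1#3, 4 of the 22 had a lower response at an unadjusted p under 0.05 (HSPA1B, HSPA1A, DNAJB1 and BAG3), against 1.11% of all genes, and none a higher one. With shAPE1#1, 5 were lower (these and HSPA6), against 4.72% of all genes. Only the mitochondrial chaperonin gene HSPE1 was higher, against 4.85% of all genes. The list's median interaction was near that of all genes, -0.042 with shAPE1#3 and -0.056 with shAPE1#1. It was -0.155 with shAPE1#3 and -0.004 with shAPE1#1 when shControl ABS replicate 2 was left out. HSPH1, an HSP110 that rose by 0.93, 0.88 and 1.04 log2 units in shAPE1#3, shAPE1#1 and shControl cells, had interactions of -0.11 and -0.16 with shAPE1#3 and shAPE1#1, and HSPB1, a small heat shock protein, of -0.05 and -0.12.

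**Figure D2:**
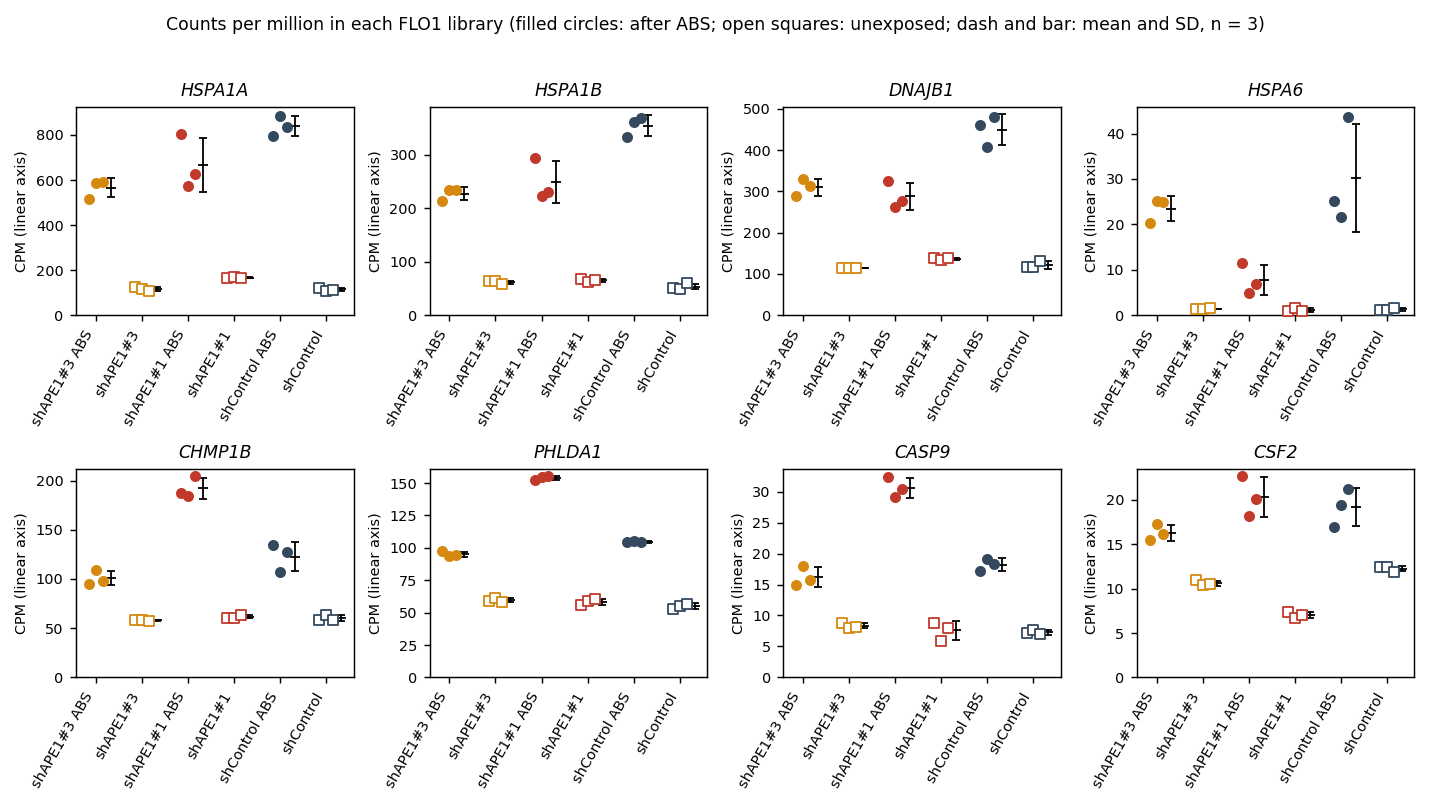
CPM in each of the 18 FLO1 libraries is plotted on linear axes for 8 genes, with filled circles after ABS, open squares unexposed, and a dash and bar for the mean and SD of 3 libraries. HSPA1B and DNAJB1 are lower after ABS in both shAPE1 groups than in shControl, while CHMP1B, PHLDA1 and CASP9 are higher after ABS in shAPE1#1 than in the 2 other ABS groups.

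Most genes of the unfolded protein response rose after ABS, with median responses of 0.293, 0.323 and 0.379 log2 units in shAPE1#3, shAPE1#1 and shControl cells. Of 23 genes for chaperones of the endoplasmic reticulum and its stress response, 19 rose on the mean ABS response and none fell. Of all genes, 7.70% rose and 5.79% fell. With shAPE1#3 none had an interaction at an unadjusted p under 0.05, and the list's median was -0.070. With shAPE1#1, 4 were lower (HERPUD1, HSPA5, SYVN1 and HYOU1) and 1 was higher (SEC61B), against 4.72% and 4.85% of all genes, with a median of -0.104, and none of the 23 differed between the hairpins at this threshold.

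HSPA5, the HSP70 of the endoplasmic reticulum (BiP), had 2536, 2614 and 2603 CPM in shAPE1#3 ABS libraries against 1222, 1311 and 1316 CPM in shAPE1#3 libraries. It had 2379, 2104 and 2267 CPM in shAPE1#1 ABS libraries against 1282, 1290.0 and 1319 CPM in shAPE1#1 libraries, and 3015, 2558 and 2748 CPM in shControl ABS libraries against 1273, 1362 and 1269 CPM in shControl libraries. It rose in each background, and its interaction was -0.07 ± 0.10 with shAPE1#3 and -0.27 ± 0.10 with shAPE1#1 (unadjusted p = 0.018, edgeR). HERPUD1, part of the machinery that clears misfolded proteins from the endoplasmic reticulum, had interactions of -0.23 with shAPE1#3 and -0.38 with shAPE1#1. For MANF, a secreted stress protein, they were -0.12 and -0.10, for DNAJB9, an HSPA5 cochaperone, -0.32 and -0.15, and for XBP1, a transcription factor of this response, -0.10 and 0.14. DERL3, a degradation factor of this compartment outside the list that was named after its values were seen, had interactions of -0.17 with shAPE1#3 and -1.001 with shAPE1#1 (unadjusted p = 0.424 and 0.000102).

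The called differences of the ABS response lay between the 2 hairpins. CHMP1B, PHLDA1, CASP9 and CSF2 rose after ABS in all 3 backgrounds, and each rose less in shAPE1#3 than in shAPE1#1 cells. CHMP1B encodes an ESCRT-III protein of membrane scission, PHLDA1 a pleckstrin-homology protein induced by MAP kinase signalling, CASP9 the initiator caspase of the mitochondrial apoptosis pathway, and CSF2 the cytokine GM-CSF. The RefSeq promoter of CHMP1B, the gene with the lowest p, is shown with its match to the cyclic AMP response element TGACGTCA in capitals.

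CHMP1B, chr18:11851163-11851462, plus strand: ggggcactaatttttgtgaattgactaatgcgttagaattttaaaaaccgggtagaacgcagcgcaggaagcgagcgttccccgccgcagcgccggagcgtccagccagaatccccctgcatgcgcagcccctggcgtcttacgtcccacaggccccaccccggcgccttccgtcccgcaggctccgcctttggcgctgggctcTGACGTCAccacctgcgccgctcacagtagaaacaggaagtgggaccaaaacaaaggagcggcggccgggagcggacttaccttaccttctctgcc

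The match begins 46 bases before the start, and 1.85% of all promoter windows held one. No window of PHLDA1, CASP9, CSF2 or HBEGF held a heat shock element, the response element of cyclic AMP, the AP-1 element TGANTCA or the TATA box element TATAAA, which says only that these letters are not in those 300 bases.

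CHMP1B (ENSG00000255112, chr18:11851396-11854449) had 94.98, 109 and 98.3 CPM in shAPE1#3 ABS libraries against 58.3, 58.0 and 57.5 CPM in shAPE1#3 libraries. It had 187, 184 and 204 CPM in shAPE1#1 ABS libraries against 60.8, 60.5 and 63.8 CPM in shAPE1#1 libraries, and 134, 107 and 127 CPM in shControl ABS libraries against 58.3, 63.6 and 58.0 CPM in shControl libraries. The 9 unexposed libraries lay within 57.5 to 63.8 CPM, and after ABS the 3 shAPE1#1 libraries were the highest of all. The difference between hairpins was -0.86 log2 units (95% interval -1.10 to -0.62, adjusted p = 0.00325, edgeR), with interactions of -0.22 for shAPE1#3 and 0.64 for shAPE1#1, neither called.

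PHLDA1 (ENSG00000139289, chr12:76025447-76033932, minus strand) had 97.3, 93.4 and 94.4 CPM in shAPE1#3 ABS libraries against 59.2, 61.4 and 58.2 CPM in shAPE1#3 libraries. It had 152, 155 and 155 CPM in shAPE1#1 ABS libraries against 55.9, 58.8 and 60.6 CPM in shAPE1#1 libraries, and 104, 106 and 105 CPM in shControl ABS libraries against 52.7, 55.0 and 57.0 CPM in shControl libraries. After ABS the groups did not overlap, in the order shAPE1#1 above shControl above shAPE1#3. The difference between hairpins was -0.74 (-0.96 to -0.53, adjusted p = 0.00325, edgeR), with interactions of -0.25 for shAPE1#3 and 0.49 for shAPE1#1. CHMP1B and PHLDA1 were called in all 26 alternative analyses of this difference.

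CASP9 (ENSG00000132906, chr1:15490832-15526534, minus strand) had 14.9, 18.02 and 15.8 CPM in shAPE1#3 ABS libraries against 8.83, 8.05 and 8.14 CPM in shAPE1#3 libraries. It had 32.3, 29.1 and 30.5 CPM in shAPE1#1 ABS libraries against 8.82, 5.87 and 8.05 CPM in shAPE1#1 libraries, and 17.2, 19.2 and 18.3 CPM in shControl ABS libraries against 7.11, 7.70 and 6.97 CPM in shControl libraries. The shAPE1#1 libraries after ABS stood alone above 29 CPM. The difference between hairpins was -1.08 (-1.45 to -0.71, adjusted p = 0.0278, edgeR), with interactions of -0.36 for shAPE1#3 and 0.72 for shAPE1#1.

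CSF2 (ENSG00000164400, chr5:132073790-132076170) had 15.5, 17.3 and 16.1 CPM in shAPE1#3 ABS libraries against 10.95, 10.4 and 10.5 CPM in shAPE1#3 libraries. It had 22.7, 18.2 and 20.1 CPM in shAPE1#1 ABS libraries against 7.36, 6.74 and 7.03 CPM in shAPE1#1 libraries, and 16.9, 19.5 and 21.3 CPM in shControl ABS libraries against 12.5, 12.4 and 11.9 CPM in shControl libraries. CSF2 differed from the 3 genes above in that shAPE1#1 lay below shControl before exposure (log2 change -0.81, adjusted p = 0.00012, edgeR) and overlapped it after ABS. The difference between hairpins was -0.93 (-1.26 to -0.60, adjusted p = 0.0342), with interactions of -0.02 for shAPE1#3 and 0.91 for shAPE1#1 (adjusted p = 0.067). CASP9 and CSF2 were called in 15 and 12 of the 26 alternative analyses.

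HBEGF, a ligand of the EGF receptor, and CCL2, a chemokine that attracts monocytes, had differences between the hairpins that were not called. HBEGF had 34.2, 33.6 and 34.8 CPM in shAPE1#3 ABS libraries against 19.1, 21.2 and 20.8 CPM in shAPE1#3 libraries. It had 57.9, 55.1 and 59.7 CPM in shAPE1#1 ABS libraries against 20.9, 21.5 and 23.8 CPM in shAPE1#1 libraries, and 37.9, 39.5 and 41.1 CPM in shControl ABS libraries against 23.2, 22.9 and 25.4 CPM in shControl libraries. Its interaction was 0.03 ± 0.12 with shAPE1#3 and 0.68 ± 0.12 with shAPE1#1 (adjusted p = 0.067), and the difference between hairpins -0.65 (adjusted p = 0.0822, edgeR). The ABS response of CCL2 was 0.04 log2 units in shAPE1#3, 0.70 in shAPE1#1 and 0.05 in shControl cells, called within shAPE1#1 cells (adjusted p = 4.5e-05, edgeR), with a difference between hairpins of -0.66 (adjusted p = 0.0965).

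**Figure D3:**
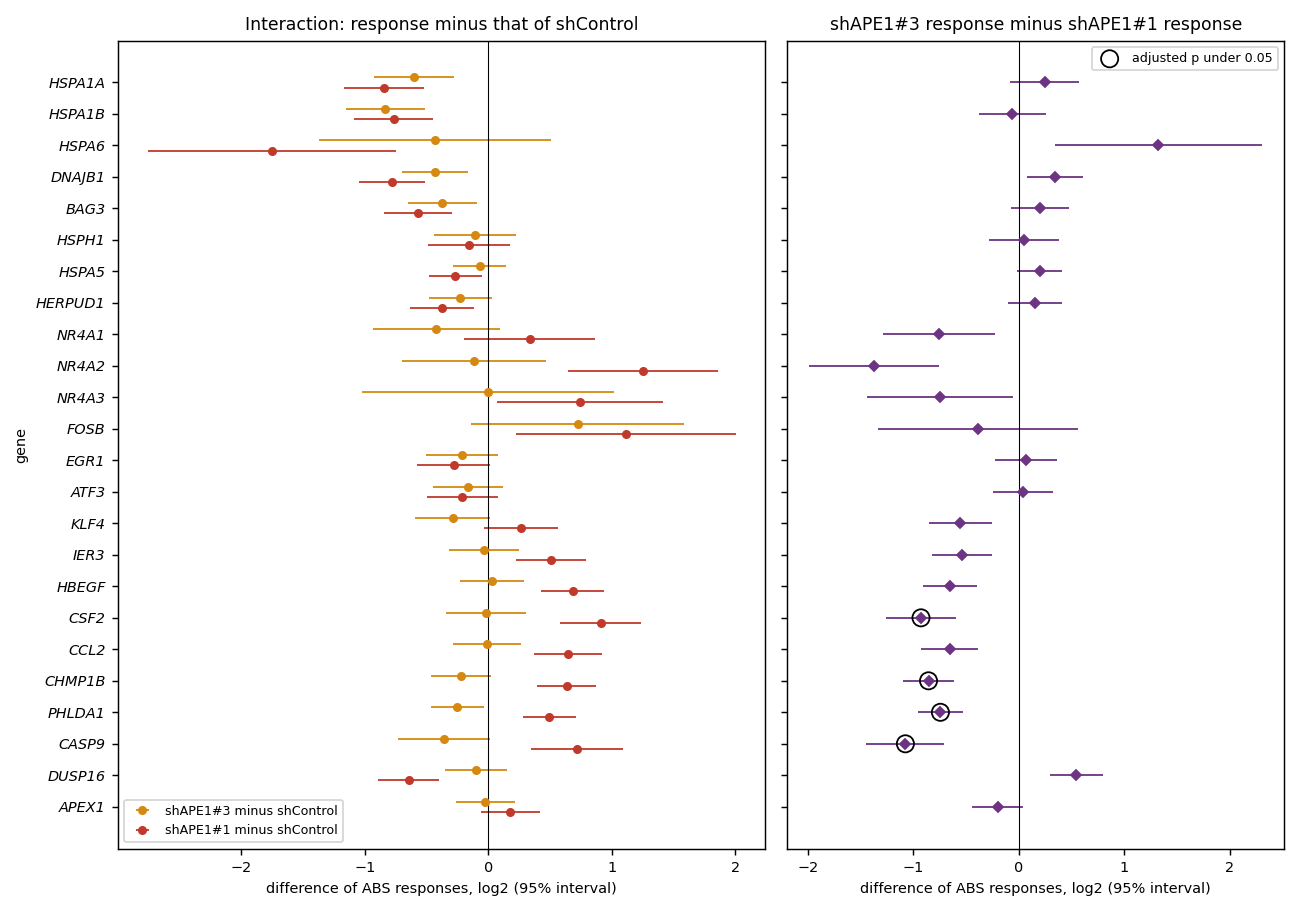
Interactions with ABS (left, 1 point for each hairpin) and the difference of the ABS response between hairpins (right) are plotted in log2 units with 95% intervals for 24 genes, and circles mark an adjusted p under 0.05. The HSP70 genes and DNAJB1 lie below 0 with both hairpins, whereas the 4 circled genes lie near or below 0 with shAPE1#3 and above 0 with shAPE1#1.

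Most of the immediate early genes rose after ABS, and none was called in an interaction or between the hairpins. Of 27 genes of the NR4A, FOS, JUN, EGR and KLF families and their companions, 22 rose on the mean ABS response and none fell. Among all genes 7.70% rose and 5.79% fell. With shAPE1#3, 1 interaction was higher (EGR4) and 1 lower (JUN) at an unadjusted p under 0.05, against 0.913% and 1.11% of all genes, and the median was -0.114, with 22 of 27 below 0. With shAPE1#1, 4 were higher (NR4A2, IER3, FOSB and NR4A3) and 2 lower (MAFF and EGR4), against 4.85% and 4.72% of all genes, and the median was 0.028. Between hairpins 1 was higher and 8 were lower with shAPE1#3, against 2.81% and 2.52% of all genes. Without shControl ABS replicate 2 the medians were -0.014 with shAPE1#3 and 0.142 with shAPE1#1.

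NR4A2, an orphan nuclear receptor, had 9.39, 8.84 and 9.36 CPM in shAPE1#3 ABS libraries against 1.72, 2.21 and 2.11 CPM in shAPE1#3 libraries. It had 13.6, 14.6 and 18.5 CPM in shAPE1#1 ABS libraries against 1.23, 1.57 and 1.18 CPM in shAPE1#1 libraries, and 15.1, 12.1 and 12.7 CPM in shControl ABS libraries against 1.62, 2.502 and 3.85 CPM in shControl libraries. The shControl libraries alone spread more than 2-fold before exposure, and shAPE1#1 lay below all of them (log2 change -1.003, adjusted p = 0.0119, edgeR). The interaction was -0.12 ± 0.28 with shAPE1#3 and 1.25 ± 0.29 with shAPE1#1 (unadjusted p = 0.00033), and the difference between hairpins -1.37 (adjusted p = 0.126).

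NR4A3, a further member of this receptor family, had 29.1, 24.1 and 28.4 CPM in shAPE1#3 ABS libraries, 44.3, 50.3 and 55.6 CPM in shAPE1#1 ABS libraries and 47.9, 38.6 and 34.9 CPM in shControl ABS libraries. It had 1.22 to 3.88 CPM in the 9 unexposed libraries, so it rose strongly in each background, by 4.07, 4.82 and 4.07 log2 units in shAPE1#3, shAPE1#1 and shControl cells. Its interaction with shAPE1#1, 0.74, was 0.19 without shControl replicate 3. FOSB, an AP-1 subunit, had interactions of 0.72 ± 0.41 with shAPE1#3 and 1.11 ± 0.43 with shAPE1#1, and of 0.29 and 0.68 without shControl replicate 3. Its unexposed shControl libraries ranged over 1.77 to 6.81 CPM, while those after ABS, 20.4 to 23.9 CPM, lay above the 13.3 to 16.3 CPM of both shAPE1 groups after ABS.

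EGR4, a zinc finger factor, ran the other way. It had 4.72, 4.06 and 4.31 CPM in shAPE1#3 ABS libraries against 0.320, 0.277 and 0.248 CPM in shAPE1#3 libraries, and 3.68, 2.85 and 2.91 CPM in shAPE1#1 ABS libraries against 0.959, 0.619 and 0.723 CPM in shAPE1#1 libraries. In shControl ABS libraries it had 3.99, 5.06 and 4.68 CPM, against 0.442, 0.674 and 0.876 CPM in shControl libraries. EGR4 in shAPE1#3 cells thus overlapped shControl after ABS and lay below it, at low levels, before exposure. EGR4 in shAPE1#1 cells lay below shControl after ABS and overlapped it before exposure. Its interaction was 1.14 ± 0.36 with shAPE1#3 (unadjusted p = 0.0048) and -0.71 ± 0.33 with shAPE1#1 (unadjusted p = 0.040), and the difference between hairpins 1.85 (adjusted p = 0.0823, edgeR). Other immediate early genes had interactions closer to 0, as EGR1 with -0.21 and -0.28 with shAPE1#3 and shAPE1#1, ATF3 with -0.17 and -0.21, ARC with -0.11 and -0.02, and EGR3 with -0.28 and 0.13.

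Among 17 genes that damp MAP kinase signalling, 8 rose on the mean ABS response, against 7.70% of all genes. DUSP16, a phosphatase of JNK and p38, had 31.2, 32.2 and 32.3 CPM in shAPE1#3 ABS libraries against 25.1, 24.5 and 24.1 CPM in shAPE1#3 libraries. It had 23.6, 23.98 and 24.4 CPM in shAPE1#1 ABS libraries against 26.7, 28.7 and 26.6 CPM in shAPE1#1 libraries, and 37.8, 32.1 and 32.3 CPM in shControl ABS libraries against 24.1, 26.9 and 22.0 CPM in shControl libraries. It rose in shAPE1#3 and shControl cells (log2 changes 0.34 and 0.43, adjusted p = 0.041 and 0.0040, edgeR) and not in shAPE1#1 cells (-0.21, adjusted p = 0.171). The interaction was -0.10 with shAPE1#3 and -0.64 with shAPE1#1 (adjusted p = 0.067). DUSP5, a nuclear ERK phosphatase, had interactions of -0.36 with shAPE1#3 and 0.27 with shAPE1#1, and ERRFI1, an inhibitor of the EGF receptor, of 0.06 and 0.46.

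At a mean log2 CPM of 1 or more, genes outside the stress lists had the smallest p with shAPE1#3 besides heat shock genes and EGR4. Higher with shAPE1#3 were GTPBP8 (0.48, unadjusted p = 0.0038), the pseudogene WASH7P (0.59), the antisense gene DNAJC9-AS1 (0.78) and the mitochondrially encoded MT-ND6 (0.44), and lower were ZNF554 (-0.67) and the antisense gene FBXL19-AS1 (-0.70). With shAPE1#1 the interactions of these 6 genes were 0.42, 0.15, 0.51, -0.01, -1.02 and -0.85, and none was called by edgeR with either hairpin. Whether reads were counted by strand is not given in the sources used here, so the antisense genes cannot be told apart from their partners. The smallest p of the mean interaction also named UCHL3 and SNRPGP10 as higher (0.74 and 1.10) and ZNF34 as lower (-0.68), none of them called. DKK1, a secreted WNT inhibitor, had interactions of 0.22 with shAPE1#3 and 0.70 with shAPE1#1. ITGAM, DHRS2 and LRP5L had differences between hairpins of 1.07, 0.78 and 0.88 (adjusted p = 0.0965, 0.104 and 0.116, edgeR).

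Small shifts of many genes in 1 direction were seen in lists of housekeeping genes, mainly with shAPE1#1. Of 28 cytosolic ribosomal protein genes, none changed on the mean ABS response, whereas 7.70% of all genes rose and 5.79% fell. Their interactions were above 0 for 28 with shAPE1#3 and for 27 with shAPE1#1, with medians of 0.113 and 0.314, and 0 and 14 of them were higher at an unadjusted p under 0.05, against 0.913% and 4.85% of all genes. Their median ABS responses were -0.058, 0.120 and -0.194 in shAPE1#3, shAPE1#1 and shControl cells. RPS19, of the small subunit and the member with the lowest p, had 287, 377 and 325 CPM in shAPE1#3 ABS libraries against 358, 303 and 335 CPM in shAPE1#3 libraries. It had 422, 360.2 and 348 CPM in shAPE1#1 ABS libraries against 319, 319.8 and 314 CPM in shAPE1#1 libraries, and 366, 304 and 371 CPM in shControl ABS libraries against 415, 383 and 355 CPM in shControl libraries. Its shControl ABS replicate 2 and shAPE1#3 ABS replicate 1 were the lowest of their groups.

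Of 30 nuclear genes of oxidative phosphorylation, 25 interactions with shAPE1#3 and 28 with shAPE1#1 were above 0, with medians of 0.093 and 0.314, and 0 and 13 were higher at an unadjusted p under 0.05, against the same shares of all genes. UQCRQ, a subunit of complex III, had an interaction of 0.24 with shAPE1#3 and 0.61 with shAPE1#1. Without shControl ABS replicate 2, the medians with shAPE1#3 and shAPE1#1 were 0.089 and 0.259 for the ribosomal list and 0.052 and 0.229 for oxidative phosphorylation. With quality weights they were 0.094 and 0.200 for the ribosomal list, and 0.079 and 0.204 for oxidative phosphorylation. The part of GC content and RNA quality in what remained was not tested beyond a GC correction, with which the ribosomal medians were 0.105 and 0.317.

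Of 20 tested genes from the list of mitochondrial rRNAs and tRNAs, 1 rose and 10 fell on the mean ABS response. The shares of all genes were 7.70% and 5.79%. The medians of the interactions in this list were 0.179 with shAPE1#3 and 0.447 with shAPE1#1. MT-TF, the tRNA for phenylalanine, had 49.1, 53.8 and 61.6 CPM in shAPE1#3 ABS libraries against 177, 186 and 225 CPM in shAPE1#3 libraries. It had 51.1, 60.1 and 70.4 CPM in shAPE1#1 ABS libraries against 107, 115 and 124 CPM in shAPE1#1 libraries, and 59.7, 45.6 and 56.4 CPM in shControl ABS libraries against 198, 178 and 163 CPM in shControl libraries. The ABS groups overlapped and the unexposed shAPE1#1 group was below the others (log2 change against shControl -0.65, adjusted p = 0.0017, edgeR), so that MT-TF fell by 1.88, 0.95 and 1.79 log2 units in shAPE1#3, shAPE1#1 and shControl cells. Its interaction was -0.09 with shAPE1#3 and 0.84 with shAPE1#1, and the difference between hairpins -0.93 (adjusted p = 0.0822). Short tRNAs are poorly captured by polyA selection, and without shControl ABS replicate 2 the list's medians were 0.029 and 0.230.

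For the 13 mitochondrially encoded mRNAs the median was 0.175 with shAPE1#3, and -0.015 with shAPE1#1, near the -0.012 of all tested genes. MT-ND6 and MT-CO1 were higher with shAPE1#3 at an unadjusted p under 0.05, against 0.913% of all genes. Of 8 metallothionein and zinc transport genes, 5 were higher with shAPE1#1 at this threshold, against 4.85% of all genes, with a median of 0.336 against 0.104 with shAPE1#3. MT1E, a metal-binding protein of this family, had interactions of 0.17 with shAPE1#3 and 0.67 with shAPE1#1. Without shControl ABS replicate 2 the metallothionein medians were 0.021 with shAPE1#3 and 0.234 with shAPE1#1. Of 30 mitotic genes, 14 fell and none rose on the mean ABS response, against 5.79% and 7.70% of all genes. The interactions of the mitotic genes had medians of 0.074 with shAPE1#3 and 0.158 with shAPE1#1. With shControl ABS replicate 2 left out, the mitotic medians were 0.006 and 0.053.

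**Figure D4:**
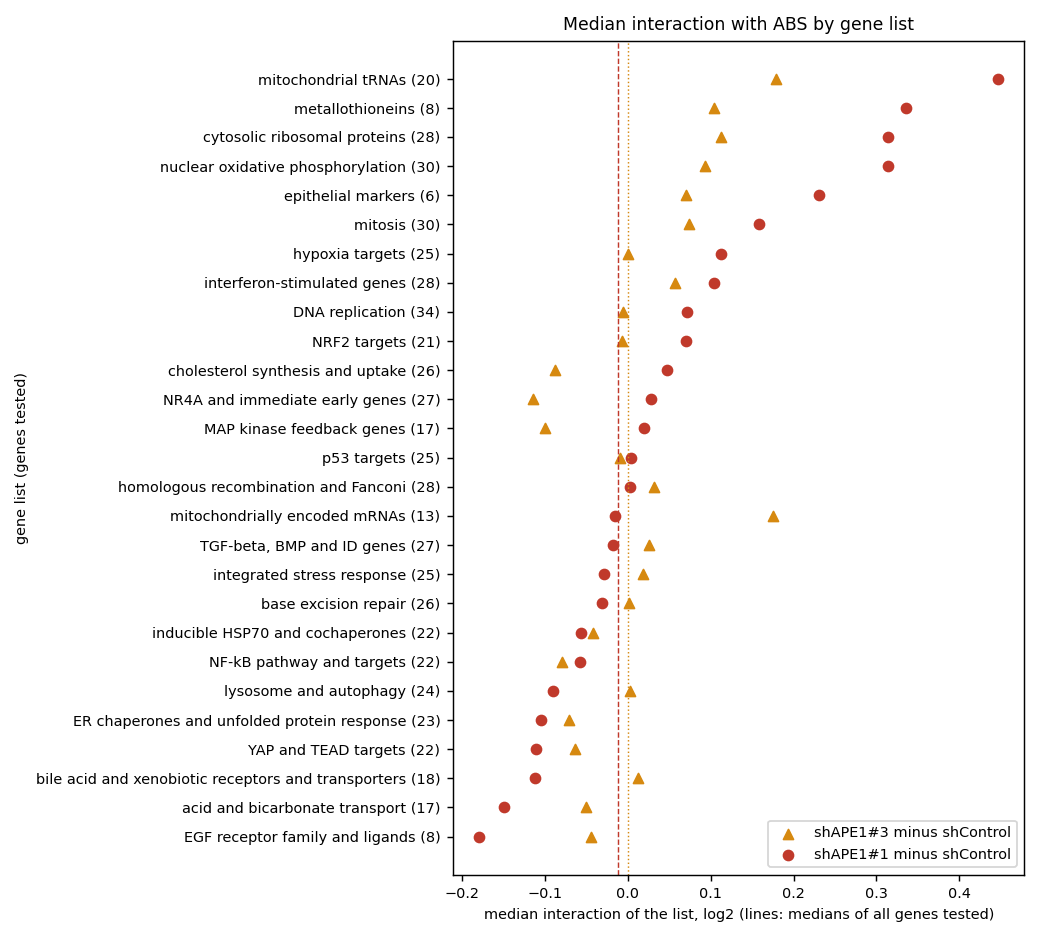
The median interaction with ABS over the tested genes of each list is plotted in log2 units, triangles for shAPE1#3 and circles for shAPE1#1, with the number of genes in brackets and vertical lines at the medians of all tested genes. The fibroblast, immune, endothelial and mesenchymal marker lists, with 2 to 3 tested genes each, are not drawn. The list of mitochondrial rRNAs and tRNAs is labelled as mitochondrial tRNAs. Of those drawn, this list, metallothioneins, ribosomal proteins and oxidative phosphorylation lie furthest above the line of all genes with shAPE1#1.

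Base excision repair, the pathway in which APE1 acts, had 26 tested genes. Of these, 1 rose and 2 fell on the mean ABS response, against 7.70% and 5.79% of all genes. The median interaction was 0.002 with shAPE1#3 and -0.031 with shAPE1#1. PCNA, the sliding clamp of DNA synthesis, was the single member at an edgeR unadjusted p under 0.05 with either hairpin (interaction 0.08 with shAPE1#3 and 0.28 with shAPE1#1). Of all genes, 0.913% were higher with shAPE1#3 and 4.85% with shAPE1#1 at this threshold. PARP1, which senses strand breaks, had interactions of -0.01 with shAPE1#3 and -0.05 with shAPE1#1, and FEN1, the flap endonuclease, of -0.06 and -0.05. Of 28 genes of homologous recombination and the Fanconi pathway, 1 was lower with shAPE1#1 (RAD52, -0.37), against 4.72% of all genes. None passed with shAPE1#3, and the medians were 0.032 with shAPE1#3 and 0.003 with shAPE1#1. Of 34 DNA replication genes, 2 were higher and 1 lower with shAPE1#1, against 4.85% and 4.72% of all genes. None passed with shAPE1#3.

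The factors p53, NF-kB and HIF-1 are among those whose DNA binding APE1 can aid by reducing them. Of 25 p53 targets, 9 rose and 3 fell on the mean ABS response, against 7.70% and 5.79% of all genes. The medians of the interactions were -0.009 with shAPE1#3 and 0.004 with shAPE1#1. GADD45A, a growth arrest gene, responded by 0.71, 0.78 and 0.77 log2 units in shAPE1#3, shAPE1#1 and shControl cells. At an unadjusted p under 0.05, none passed with shAPE1#3 and 1 was higher with shAPE1#1, against 4.85% of all genes. It was PMAIP1 (NOXA), a promoter of apoptosis, with interactions of -0.01 with shAPE1#3 and 0.55 with shAPE1#1. Between the hairpins 3 were lower with shAPE1#3 (PMAIP1, CDKN1A and AEN), against 2.52% of all genes. Of 22 NF-kB genes, 16 rose and 2 fell on the mean ABS response, against 7.70% and 5.79% of all genes. None had an interaction at an unadjusted p under 0.05 with shAPE1#3. With shAPE1#1, 2 were higher, against 4.85% of all genes, the chemokine CXCL2 (1.37) and the apoptosis inhibitor BIRC3 (0.66). CXCL2 was low, with 0.460 to 0.510 CPM in unexposed shAPE1#1 and 0.700 to 0.990 CPM in unexposed shControl libraries. After ABS these groups overlapped, at 1.14 to 1.99 CPM in shAPE1#1 and 0.868 to 1.24 CPM in shControl libraries. Between the hairpins 4 NF-kB genes were lower with shAPE1#3 (CXCL2, BIRC3, LIF and NFKBIA), against 2.52% of all genes. NFKB2 responded by 0.86, 0.68 and 0.96 log2 units in shAPE1#3, shAPE1#1 and shControl cells.

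Of 25 hypoxia targets, 7 rose and 2 fell on the mean ABS response, against 7.70% and 5.79% of all genes. At an unadjusted p under 0.05, none was higher with shAPE1#3 and 5 with shAPE1#1, against 0.913% and 4.85% of all genes. At this threshold 5 were lower with shAPE1#3 than with shAPE1#1, against 2.52% of all genes. ANGPTL4, a secreted inhibitor of lipoprotein lipase, had 259, 246 and 219 CPM in shAPE1#3 ABS libraries against 122, 119.9 and 115 CPM in shAPE1#3 libraries. It had 272, 241 and 269 CPM in shAPE1#1 ABS libraries against 74.8, 73.8 and 78.4 CPM in shAPE1#1 libraries, and 181, 247 and 208 CPM in shControl ABS libraries against 94.4, 93.9 and 113 CPM in shControl libraries. The ABS groups overlapped, while shAPE1#1 was the lowest and shAPE1#3 the highest group before exposure, and the interaction was -0.06 with shAPE1#3 and 0.72 with shAPE1#1. Of 21 NRF2 targets, none passed with shAPE1#3 and 3 were higher with shAPE1#1 (PRDX1, TXN and HMOX1), against 4.85% of all genes. The same 3 were lower with shAPE1#3 than with shAPE1#1, against 2.52% of all genes.

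Of 26 genes of cholesterol synthesis and uptake, 8 rose on the mean ABS response, against 7.70% of all genes, and none fell, against 5.79%. The 4 that differed between the hairpins at an unadjusted p under 0.05 were lower with shAPE1#3, against 2.52% of all genes. Among them were INSIG1, a sterol sensor of the endoplasmic reticulum (-0.63), the isomerase gene IDI1 (-0.75) and the synthase gene HMGCS1 (-0.43). INSIG1 responded by 0.31 log2 units in shAPE1#3, 0.94 in shAPE1#1 and 0.62 in shControl cells. Of 18 bile acid and xenobiotic receptors and transporters, none rose and 3 fell on the mean ABS response. The shares of all genes were 7.70% and 5.79%. The xenobiotic oxidase CYP3A5 and the bile salt exporter ABCC3 were higher with shAPE1#3 at an unadjusted p under 0.05 (1.94 for CYP3A5 and 0.69 for ABCC3), against 0.913% of all genes. With shAPE1#1, CYP3A5 was also higher (1.80, set against the same shControl libraries), as were 4.85% of all genes. Lower with shAPE1#1 were VDR, a receptor that also binds a secondary bile acid (-0.43), and AHRR, the repressor of the aryl hydrocarbon receptor (-0.41). Of all genes, 4.72% were lower with shAPE1#1 at this threshold. Of 17 genes of acid and bicarbonate transport, none passed with shAPE1#3 and 3 were lower with shAPE1#1, against 4.72% of all genes, among them SLC9A3, a sodium and proton exchanger (-0.72).

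The integrated stress response (25 genes), interferon-stimulated genes (28), YAP and TEAD targets (22), TGF-beta, BMP and ID genes (27), EGF receptor genes (8) and lysosome and autophagy genes (24) had medians of -0.063 to 0.057 with shAPE1#3 and of -0.179 to 0.104 with shAPE1#1, and 0 to 1 members of each passed an unadjusted p of 0.05 with shAPE1#3. With shAPE1#1, 3 lysosome and autophagy genes were higher (CTSL, GLA and GABARAPL2) and 1 was lower, 1 YAP target was higher and 3 were lower, and 2 genes of the integrated stress response were higher and 1 was lower, against 4.85% and 4.72% of all genes. Of the EGF receptor genes 1 was higher and 1 lower, against the same shares. ISG15 and ID1 were the members higher with shAPE1#1 in the interferon and TGF-beta lists. Without shControl ABS replicate 2 the median with shAPE1#1 was 0.065 for lysosome and autophagy, against -0.090 with it, and 0.083 for the integrated stress response, against -0.029. For YAP targets it was -0.037 without that library and -0.110 with it, and for EGF receptor genes -0.084 and -0.179. ATF4, the factor behind the integrated stress response, had interactions of 0.03 and 0.27 with shAPE1#3 and shAPE1#1. ANKRD1, a YAP target that responded by 1.38, 0.84 and 1.96 log2 units in shAPE1#3, shAPE1#1 and shControl cells, had -0.58 and -1.12 (unadjusted p = 0.149 and 0.0048, edgeR). CCN1, a further YAP target, had -0.17 and 0.17, and ID1, a BMP target that fell after ABS in each background, 0.17 and 0.34.

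Markers of the labelled cell type, an epithelial tumor, were unevenly expressed. Over the 18 libraries the keratins KRT8 and KRT18 reached 2867 and 1721 CPM, whereas EPCAM, CDH1 and KRT19 stayed at or below 1.70, 19.6 and 19.1 CPM, and the mesenchymal VIM ranged over 2826 to 3516 CPM. Of 7 epithelial markers 6 passed the filter, with summed levels of 2769 to 2822 CPM in shAPE1#3 ABS, 2547 to 2585 CPM in shAPE1#3, 4248 to 4656 CPM in shAPE1#1 ABS, 3710.0 to 3922 CPM in shAPE1#1, 2520.0 to 3067 CPM in shControl ABS and 2430.0 to 2758 CPM in shControl libraries. The shAPE1#1 groups were thus the highest both before and after ABS. Of 4 mesenchymal markers 3 passed, with a summed 2886 to 3555 CPM over all libraries. Fibroblast markers were low in every library (2 of 8 past the filter, 18.9 to 37.7 summed CPM). So were immune markers (3 of 6, 3.09 to 5.71 CPM) and endothelial markers (2 of 5, 0.257 to 1.73 CPM). PTPRC and KDR, which define immune and endothelial cells, were each at 0 in 16 of 18 libraries. The immune markers CD14 and CD68 and the endothelial markers VWF and CDH5 were at 0 in none. CD68 had 2.27 to 4.09 CPM, while VWF and CDH5 stayed at or below 0.966 and 0.786 CPM. VWF and CDH5, the 2 tested endothelial markers, both rose on the mean ABS response, against 7.70% of all genes. The part of these markers in the interactions was not tested.

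The number of calls depended on the analysis, and more so for shAPE1#1 than for shAPE1#3. Over 26 alternatives, the interaction of shAPE1#3 called 0 to 4 genes, that of shAPE1#1 0 to 136, and the difference between hairpins 2 to 182. Leaving out shControl ABS replicate 2 gave 0 calls with shAPE1#3, 12 with shAPE1#1, and 48 for the difference between hairpins, which does not use that library but shares its estimate of spread. Any call in at least 5 alternatives was reached by 1 gene with shAPE1#3, 15 genes with shAPE1#1 and 42 genes for the difference.

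**Figure D5:**
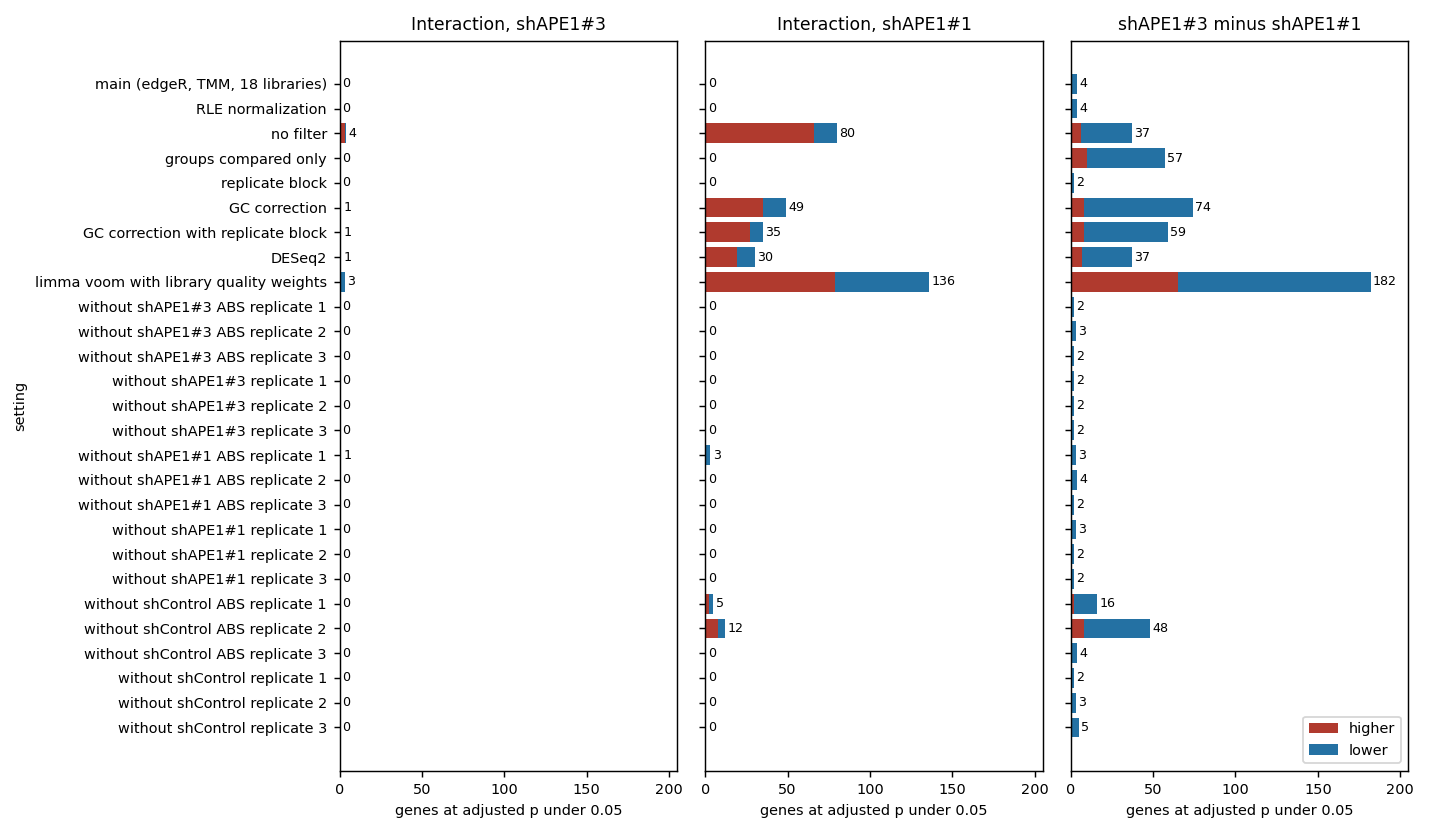
The number of genes at an adjusted p under 0.05 is plotted for the interaction of shAPE1#3, the interaction of shAPE1#1 and the difference between hairpins, under the reported analysis (top row) and 26 alternatives, with red for higher and blue for lower genes. Calls with shAPE1#3 stay between 0 and 4, while those with shAPE1#1 reach 136 and those for the difference 182, both with quality weights.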

How the data were processed

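RNA of FLO1 cells was sequenced after polyA selection. The authors deposited a table of raw counts, with Ensembl genes in rows and libraries in columns. Per the submitters' processing notes, Trimmomatic 0.36, STAR 2.5.2b, featureCounts and Subread 1.5.2 were used with GRCh38; for annotation release, strand and multi-mapping no setting is given in the sources used. Of 57500 gene IDs, 56898 matched GENCODE 29. Differences were fitted over the 18 libraries by edgeR 4.0.16 under R 4.3.3, using TMM normalization, filterByExpr (minimum count 10, minimum total 15), 1 coefficient per group, the robust quasi-likelihood test and Benjamini-Hochberg adjustment over 16868 genes, with calls at 0.05 and 95% intervals. CPM are per library total and carry no TMM factor. Scripts were tested on simulated data. The 31 lists (653 genes) and the rule for named genes (APEX1, the smallest p or largest change per comparison at a mean log2 CPM of 1 or more, list members called or most expressed) were chosen with earlier results of these data known. DERL3, IL6R, TUBA4A, ANGPTL4, CYP3A5, ABCC3, UQCRQ, RPS19 and other members given by their unadjusted p were named after their values were seen. Alternatives were RLE normalization, no filter, the groups compared only, a replicate block, GC correction, DESeq2 1.42.0, leaving out each library, and, chosen after seeing the data, limma 3.58.1 voom with library quality weights. Columns of the other cell line were not analysed here. One column, shAPE1#3 ABS replicate 3, carries an additional suffix and was used as named. Promoter windows of 300 bases are from RefSeq (GRCh38.p14), found for 14 of 15 genes looked up.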

Additional observations from a re-analysis of the deposited data

Results flagged for a closer look

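The ABS response differed between the hairpins by the test of the difference itself for 4 genes, each lower in shAPE1#3 than in shAPE1#1 cells (edgeR quasi-likelihood, adjusted p under 0.05). The difference was -0.86 log2 units for CHMP1B, -0.74 for PHLDA1, -1.08 for CASP9 and -0.93 for CSF2. In CHMP1B, PHLDA1 and CASP9 the unexposed groups of the hairpins did not differ by an adjusted p under 0.05 from shControl, and in CSF2 the unexposed shAPE1#1 group was lower than shControl by a log2 change of -0.81 (adjusted p = 0.00012). Single outlying libraries were not looked for gene by gene, since each group held 3.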

How the results depend on the processing

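No called value changed sign. The split of the mean ABS response, 1299 higher and 977 lower, turned to 1848 and 2725 with GC correction and to 2718 and 2952 with quality weights. Some list medians near 0 changed sign, such as that of lysosome and autophagy genes with shAPE1#1, -0.090, which was 0.046 with GC correction. The count of called genes for the interaction of shAPE1#3 was 0, and 4 with no filter, 1 with GC correction, 1 with GC correction and block, 1 with DESeq2 and 3 with quality weights. For shAPE1#1 it was 0, and 80 (66 higher), 49 (35 higher), 35 (27 higher), 30 (19 higher) and 136 (79 higher) in the same order. For the mean of both it was 0, and 20, 4, 4, 3 and 6. For the difference between hairpins it was 4, and 37, 74, 59, 37 and 182, with 57 when only the 4 groups compared were fitted. For the mean ABS response it was 2276, and 4573 with GC correction (1848 higher), 4327 with GC correction and block and 5670 with quality weights (2718 higher). RLE normalization gave 0, 0, 0 and 4 calls. Leaving out each library gave 0 to 1 calls for shAPE1#3, 0 to 12 for shAPE1#1, 0 to 3 for the mean, 2 to 48 for the difference and 1800 to 4015 for the mean ABS response. The highest count for shAPE1#1, the difference and the ABS response came without shControl ABS replicate 2 (12, 48 and 4015), and without shControl ABS replicate 1 the first 2 were 5 and 16. Without shAPE1#1 ABS replicate 1 there were 1, 3 and 3 calls for shAPE1#3, shAPE1#1 and the mean. The cause of these changes was not tested.

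Of 30 genes called for shAPE1#1 by DESeq2, 23 were among the 49 with GC correction, and the 12 called without shControl ABS replicate 2 were all among both the 30 of DESeq2 and the 136 with quality weights. Replicate numbers did not pair the libraries: 45 same-numbered pairs of deviations from group means correlated at -0.288 to 0.0947, and 1 of 18 libraries lay closest to its own number. The replicate block gave 0 calls for each interaction and for their mean, 2 for the difference, where CASP9 and CSF2 had adjusted p of 0.0893 and 0.097 (edgeR), and 1911 for the mean ABS response. Named genes were refitted 10529 times; 484 refits changed sign and none of these was called in either analysis.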

Other observations

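Large interactions with shAPE1#1 among genes whose mean log2 CPM was 1 or more included genes of uneven level between libraries of 1 group. MUC5AC, a gel-forming mucin, had 0.115, 0.157 and 3.57 CPM in shAPE1#3 ABS libraries, 5.02, 0 and 0 CPM in shAPE1#3 libraries, 3.01, 5.99 and 8.36 CPM in shAPE1#1 ABS libraries and 0.0767, 0.0729 and 6.84 CPM in shAPE1#1 libraries. It had 0.104, 0.0460 and 0.215 CPM in shControl ABS libraries and 1.33, 0.128 and 0.0761 CPM in shControl libraries. TFF1, a trefoil peptide secreted with mucin, had 1.32 to 3.64 CPM in the 6 shAPE1 libraries where MUC5AC was over 3 CPM, and at most 0.111 CPM in the other 12 libraries. The interactions of MUC5AC were 1.61 with shAPE1#3 and 3.30 with shAPE1#1. KRT17, a stress keratin with interactions of 1.42 and 3.44, had 23.6, 0.898 and 2.97 CPM in unexposed shControl libraries. Neither MUC5AC nor KRT17 was called in an interaction, and both were left out of the accounts of gene groups. Whether counts of MUC5AC and TFF1 came from RNA of other libraries was not tested. LYZ, an immune marker, was at 0 in all 3 shControl ABS libraries, so no fold is given for it.

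IL6R and TUBA4A, strongly responding genes outside the lists, had their largest response in shAPE1#1 and their smallest in shAPE1#3 cells. IL6R, the receptor of interleukin 6, responded by 0.87 log2 units in shAPE1#3, 1.75 in shAPE1#1 and 1.39 in shControl cells, with a difference between hairpins of -0.88. TUBA4A, an alpha tubulin, responded by 0.67, 1.43 and 0.91 log2 units in the same order, with a difference between hairpins of -0.75. Neither difference was called by edgeR.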
